A study of Mus musculus with 22 samples.

Results

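Histone acetylation is set and read by a small group of enzymes and binding proteins, and 9 of their genes were followed through the H3K27ac peak lists of BcorΔE9-10 myeloid progenitors. The 9 genes were named by function, but earlier results of these data were known when they were chosen. The list holds the acetyltransferases Crebbp, Ep300, Kat6a, Kat6b and Kat2a, the bromodomain proteins Brd2 and Brd3, and the deacetylases Hdac1 and Hdac2. The 9 genes are among 21829 protein-coding genes on the chromosomes of the mouse annotation. For each gene, every peak over its body or within 10 kb of it was collected, and its height and width at the transcription start site (TSS) were read in each library.

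The study asked how loss of Bcor, a subunit of a noncanonical Polycomb complex, changes blood progenitors. H3K27ac, the acetylation of lysine 27 on histone H3 that marks active promoters and enhancers, was mapped by ChIP-seq in 3 libraries of 1 group. These came from C57BL/6 mice of the genotype scl-Cre-ERT +; Bcorfl/y, given 1 mg of tamoxifen a day into the peritoneum on 5 days at 3 to 6 months of age. In them the stem cell enhancer of Scl drives a tamoxifen-inducible Cre that removes exons 9 and 10 of the single Bcor copy. KL cells (Lin- cKit+ Sca1-) were sorted from bone marrow 20 weeks later. Of the 22 samples in 11 groups, the other 19 were not analysed here, and no H3K27ac library of BcorWT cells was among the 3. The values therefore describe BcorΔE9-10 cells, and no effect of the genotype can be read from them. Nor can a lower peak be told apart from fewer cells that carry it, since each library pools many cells.

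The peak lists held 23410, 25963 and 23758 peaks, with a median fold enrichment of 4.92, 4.72 and 5.53 in replicates 1, 2 and 3. Depths recovered from the peak caller's background were 18.0, 18.9 and 19.3 M reads. The labelled cell type was checked on marker genes. All 6 progenitor markers (Kit, Gata2, Myb, Runx1, Spi1 and Cebpa) had a TSS peak in every library, beside 43.3% of all protein-coding genes. The peaks of these markers were low, with a median of 7.42-fold beside 10.2-fold for all genes with such a peak. Of 6 markers of mature myeloid cells, none had one in every library, and Ngp had one in a single library. None of 6 markers of other organs had a TSS peak. Outside these lists Cd5, a marker that the sorted cells lack by their gating, had one in every library, at 5.01-fold. The check is therefore a coarse one.

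Acetyltransferases, the writers, transfer an acetyl group from acetyl-CoA to lysines of histone tails. Crebbp and Ep300 (CBP and p300) are close paralogues that set H3K27ac, Kat6a and Kat6b (MOZ and MORF) work in complexes with BRPF proteins, and Kat2a (GCN5) is the catalytic subunit of SAGA and ATAC. Bromodomain proteins such as Brd2 and Brd3 bind acetylated lysines and help recruit the transcription machinery, while Hdac1 and Hdac2 remove acetyl groups in the Sin3, NuRD and CoREST complexes. Crebbp, Ep300 and Kat6a have known roles in haematopoietic stem cells, and their genes are rearranged or mutated in some myeloid leukaemias.

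Promoter sequence is shown first for 5 genes, because it shows which DNA lay at or between the acetylated flanks of each start site. The windows run from 250 bases before to 50 bases after the annotated TSS nearest the strongest peak summit in replicate 1, read 5′ to 3′ on the gene's strand from the RefSeq GRCm38 genome. These windows were chosen after the data had been seen. Capitals mark exact matches on either strand to 8 motifs, and overlapping copies were counted separately. GGGCGG is the core bound by SP and KLF factors, and CCAAT is bound by NF-Y. CCGGAAG is an ETS core, whereas TGACGT belongs to the cyclic AMP response element. GCGCATGC is bound by NRF1, and CACGTG is the E-box of MYC and USF factors. TATAAA is the TATA box. AAGATGGCG is bound by YY1 and was added after the sequences had been seen.
Ep300 (chr15:81585147-81585446, plus strand): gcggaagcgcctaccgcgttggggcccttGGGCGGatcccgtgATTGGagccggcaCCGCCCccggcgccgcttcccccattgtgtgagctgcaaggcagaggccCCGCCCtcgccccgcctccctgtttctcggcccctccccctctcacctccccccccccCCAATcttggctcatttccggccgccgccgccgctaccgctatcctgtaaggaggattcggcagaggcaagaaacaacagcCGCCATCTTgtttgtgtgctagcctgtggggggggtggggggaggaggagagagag
Crebbp (chr16:4213948-4214247, minus strand): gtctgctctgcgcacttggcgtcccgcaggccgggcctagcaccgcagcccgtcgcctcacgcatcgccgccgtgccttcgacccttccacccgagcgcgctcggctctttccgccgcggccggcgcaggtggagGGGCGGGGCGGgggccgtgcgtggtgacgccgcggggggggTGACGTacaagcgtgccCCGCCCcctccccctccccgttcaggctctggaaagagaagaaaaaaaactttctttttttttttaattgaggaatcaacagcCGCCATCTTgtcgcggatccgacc
Kat6b (chr14:21500603-21500902, plus strand): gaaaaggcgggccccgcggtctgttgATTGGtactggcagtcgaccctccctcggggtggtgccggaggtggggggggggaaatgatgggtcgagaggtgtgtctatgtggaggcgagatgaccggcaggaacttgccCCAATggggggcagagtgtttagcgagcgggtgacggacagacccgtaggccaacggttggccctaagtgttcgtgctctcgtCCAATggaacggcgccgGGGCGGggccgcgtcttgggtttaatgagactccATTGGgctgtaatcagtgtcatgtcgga
Brd3 (chr2:27475349-27475648, minus strand): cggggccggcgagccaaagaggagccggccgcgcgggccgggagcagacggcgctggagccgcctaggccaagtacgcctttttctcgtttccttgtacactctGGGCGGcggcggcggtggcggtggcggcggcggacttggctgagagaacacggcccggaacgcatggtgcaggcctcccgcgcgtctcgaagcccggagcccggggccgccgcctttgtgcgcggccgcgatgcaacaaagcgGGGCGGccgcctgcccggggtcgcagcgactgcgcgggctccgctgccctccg
Hdac1 (chr4:129542664-129542963, minus strand): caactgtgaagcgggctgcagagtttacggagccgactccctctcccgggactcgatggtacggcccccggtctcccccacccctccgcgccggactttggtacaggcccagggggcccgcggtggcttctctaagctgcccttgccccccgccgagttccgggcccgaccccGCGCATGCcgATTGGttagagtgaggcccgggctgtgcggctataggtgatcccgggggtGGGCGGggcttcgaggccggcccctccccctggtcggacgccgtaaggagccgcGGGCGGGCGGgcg

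Windows of 8 genes were searched, all but Kat6a. A match to GGGCGG was present in 6 of the 8, all but Kat2a and Brd2, and in 68.7% of the 9460 windows of genes with a TSS peak in every library. CCAAT was present at Ep300, Kat6b and Hdac1, against 35.8% of all windows. Kat6b held 4 copies of it and Ep300 2. The YY1 motif was present at Crebbp and Ep300, against 4.77% of all windows. Counted with the TSS as 0, it began 26 bases downstream at Crebbp and 6 bases upstream at Ep300. Among the 8 genes TGACGT was found only at Crebbp (14.1% of all windows) and CCGGAAG only at Brd2 (22.3%), and CACGTG at none (10.7%). GCGCATGC was found at Brd2, as 2 overlapping copies, and at Hdac1 (5.72%), and TATAAA at none of the 8 (5.34%).

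The 8 windows held 19 to 46 CpG dinucleotides, beside a median of 24 over all 9460 windows. Brd3 had the most, at the 95.4th percentile, and Kat2a the fewest, at the 32.5th. A separate RefSeq table of 32851 promoters, in which windows follow the RefSeq starts, held 10 windows for 7 of the genes and none for Kat6a and Hdac1. In that table GGGCGG was present for 6 of the 7 genes (35.7% of all promoters) and CCAAT for none (37.4%). The RefSeq starts of Crebbp and Ep300 lie 593 and 817 bases inside the annotated starts used above, so the searched letters depend on which start is taken.

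Each of the 9 genes had an H3K27ac peak within 2.5 kb of one of its TSSs in every library. Over all protein-coding genes this was so for 43.3%, that is 9460 genes, and these served as the comparison for height and width. Fold enrichment is the height of the strongest TSS peak over the local background of the same library, not scaled between libraries, and its median over the 9460 genes was 9.37, 9.78 and 11.4 in the 3 libraries. Width is the summed length of the TSS peaks, with medians of 924, 996 and 1026 bp. The 9 genes ran from 9.0-fold to 31.4-fold, with a median of 14.1-fold. The median of their percentiles, averaged over the libraries, was 72.5.

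**Figure D1:**
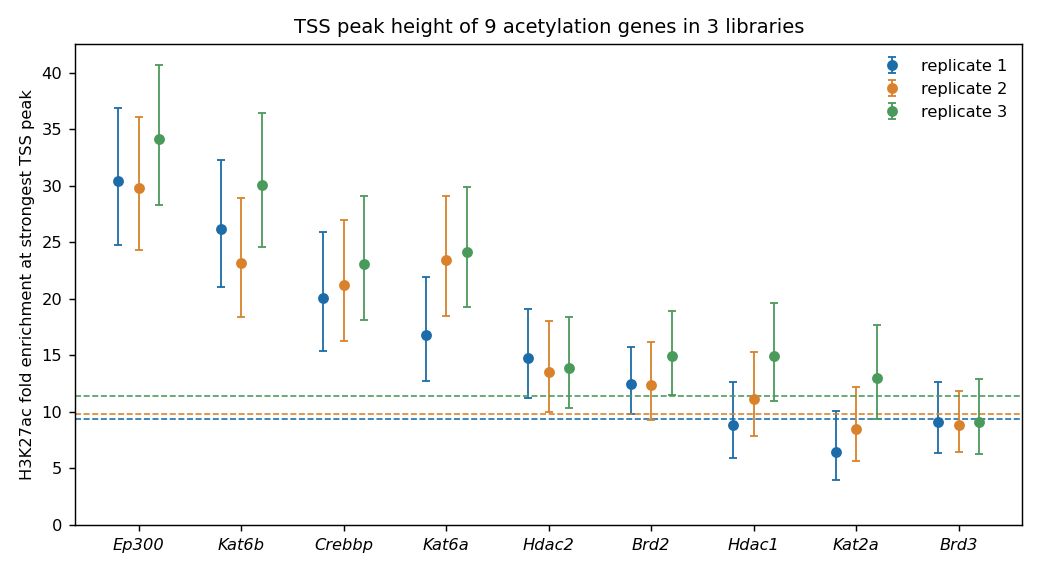
Fold enrichment of the strongest H3K27ac peak at a TSS of each of the 9 genes (vertical axis) in the 3 libraries (points), with 95% Poisson intervals on the fragments at the summit as bars. Dashed lines are the medians of 9460 genes in each library; the 4 acetyltransferase genes on the left lie above them in every library, while Kat2a and Brd3 lie around or below them.

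Ep300 had the highest peak of the 9. Its fold enrichment was 30.4, 29.8 and 34.1 in replicates 1, 2 and 3, from at least 100 fragments at the summit in each library. The mean of 31.4 ± 2.34 (SD, n = 3) placed it at the 99.0th percentile of genes with a TSS peak. Crebbp reached 20.1, 21.2 and 23.1, a mean of 21.5 ± 1.49 (SD, n = 3) at the 91.7th percentile. Crebbp lay below Ep300 in each library, and the ranges of the 2 genes did not overlap. The difference was -0.59, -0.49 and -0.56 on the log2 scale of fold enrichment, a mean of -0.55 ± 0.05 (SD, n = 3). An exact sign-flip permutation test over 3 libraries cannot give a two-sided p below 0.25, and it gave 0.25 here, or 0.5 after Benjamini-Hochberg adjustment over 4 paralogue pairs. Within each library the 95% counting intervals of Crebbp and Ep300 overlapped, as they did for all 4 pairs.

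The acetylated domain of Ep300 was also the wider. It covered 2223, 2317 and 2679 bp (2406 ± 241 SD, n = 3), and that of Crebbp 1559, 1748 and 1778 bp (1695 ± 118.7 SD, n = 3). The difference in log2 width was -0.50 ± 0.09 (SD, n = 3), with the same sign in 3 of 3 libraries (exact sign-flip permutation p = 0.25, adjusted 0.25). With peaks of −log10 q of at least 5 the width of Ep300 fell to 2029 bp and the mean difference to -0.23. The sign was then not shared by all 3 libraries (exact sign-flip permutation p = 0.5). At both genes a high peak began at the TSS and ran into the gene, and a low peak lay upstream of it. At Ep300 the high peak began 8 to 19 bp before the start and ended 1511, 1674 and 2073 bp after it, and the upstream peak was 3.69 ± 0.489-fold (SD, n = 3). At Crebbp the high peak reached from 26 bp before to 1186 bp after the start, with an upstream peak of 5.46 ± 0.355-fold (SD, n = 3). Between the peaks lay 320 bp at Ep300 and 82 bp at Crebbp that no library covered. These gaps hold the CCAAT and GGGCGG copies of Ep300 and the TGACGT of Crebbp, with its GGGCGG at -57 bp. Peaks covered 58 to 69 of the 300 bases searched at Ep300, so most matches there would fall in the gap. Binding of factors was not tested. The start sites of 1110025M09Rik and Gm23880 lie within 2.5 kb of the Ep300 peaks.

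The MYST-family writers Kat6b and Kat6a were also high. Kat6b reached 26.2, 23.2 and 30.1-fold, with a mean of 26.5 ± 3.42 (SD, n = 3) at the 96.9th percentile. Kat6a reached 16.8, 23.4 and 24.1-fold, with a mean of 21.4 ± 4.02 (SD, n = 3) at the 90.8th percentile. Replicate 1 was low for Kat6a, and the order of the 2 genes was not the same in every library. Their log2 differences, Kat6a over Kat6b, were -0.64, 0.01 and -0.32 (exact sign-flip permutation p = 0.5, adjusted 0.5).

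The pair differed more in shape than in height. The strongest Kat6b peak was 419, 385 and 408 bp long, and that of Kat6a 1014, 1127 and 1081 bp. On the log2 scale Kat6a was wider by 1.41 ± 0.14 (SD, n = 3) in this measure and by 0.47 ± 0.23 in summed width, in 3 of 3 libraries each (exact sign-flip permutation p = 0.25, adjusted 0.25). Summed width was 1380 ± 125 bp for Kat6a and 996 ± 107 bp for Kat6b (SD, n = 3), so Kat6b combined a peak in the top few percent by height with a domain near the middle by width, at the 50.7th percentile. With peaks of −log10 q of at least 5 the summed width of Kat6b was 478 bp and the log2 difference between the pair 1.55. At Kat6a a low upstream peak of 6.25 ± 0.39-fold (SD, n = 3) was separated from the high one by 394 bp that no library covered.

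Kat6b carried its peaks at internal start sites. Its 5′-most TSS had no peak within 2.5 kb in any library. The high peak lay 19398 to 19816 bp downstream of that TSS, at the start site whose promoter is printed above, and a lower one of 4.75 ± 1.03-fold (SD, n = 3) lay 18196 to 19006 bp downstream. Brd3 was like it in this respect: its peaks lay 31479 to 32821 bp downstream of the 5′-most TSS, at a cluster of internal starts. Of all genes with a TSS peak in every library, 3.22% had no peak at the 5′-most TSS. Among those whose TSSs spread over more than 5 kb the share was 10.3%. Of the 9 genes, 5 have TSSs so spread (Crebbp, Ep300, Kat6b, Brd2 and Brd3), and 2 of these 5 had no peak at the 5′-most TSS.

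**Figure D2:**
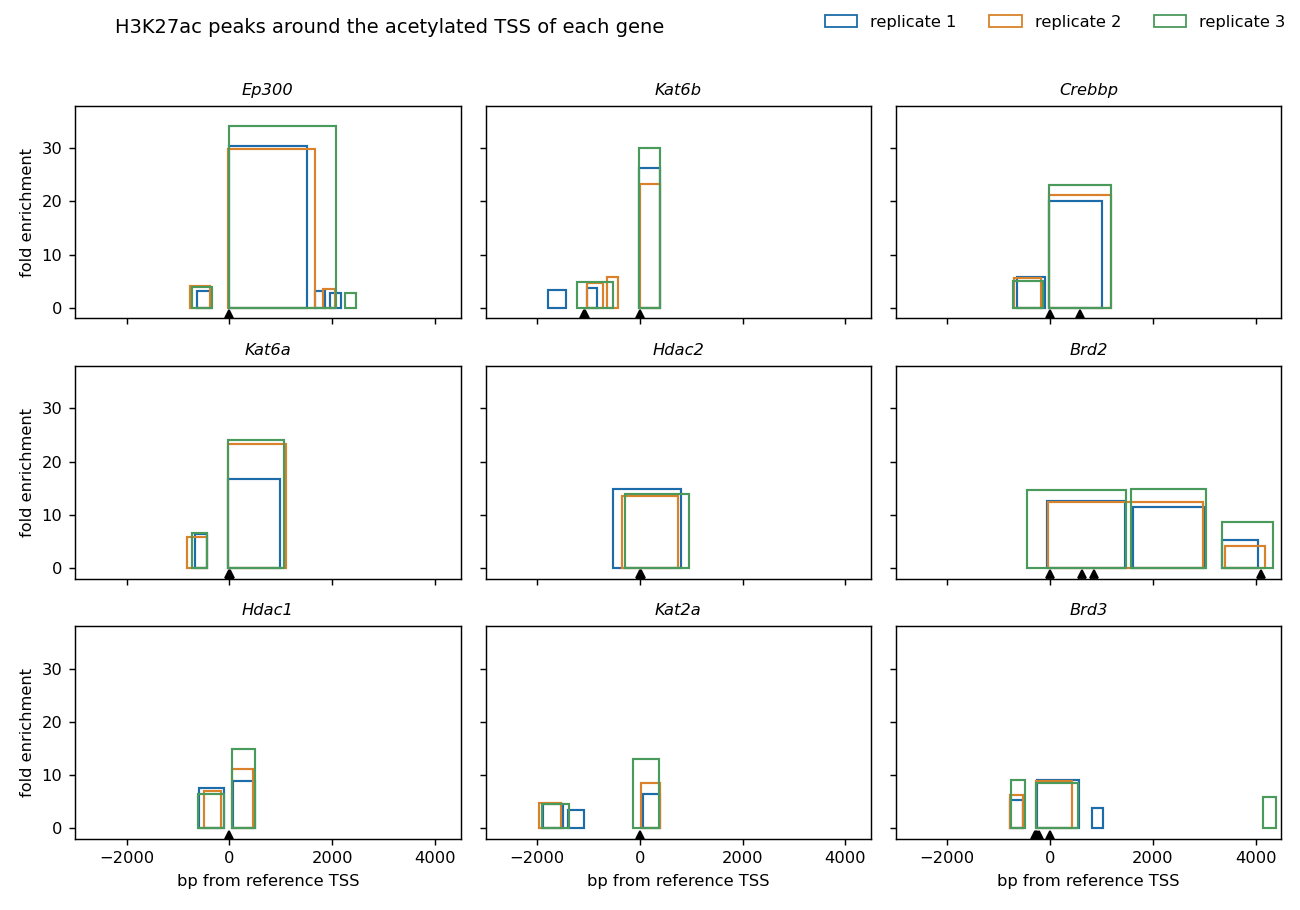
H3K27ac peaks of the 3 libraries around a reference TSS of each gene (0 on the horizontal axis, in bp, in the direction of transcription), drawn as boxes from peak start to peak end with the fold enrichment as height. Triangles are annotated protein-coding starts; the reference is the 5′-most TSS, or for Kat6b and Brd3 the internal one nearest the strongest summit in replicate 1. High peaks begin at the TSS of Ep300, Crebbp and Kat6a with low peaks upstream, a single peak spans the TSS of Hdac2, and Brd2 is covered over several kb.

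Kat2a, the fifth writer, stood apart from the other 4. Its strongest peak reached 6.49, 8.44 and 13.0-fold, from only 18, 26 and 39 fragments. The mean was 9.31 ± 3.34 (SD, n = 3), at the 41.9th percentile. Replicate 3 was 2.00 times replicate 1, the widest ratio among the 9 genes, yet the 95% counting intervals of the 3 libraries overlapped, from 3.98 to 10.1 in replicate 1 and from 9.34 to 17.7 in replicate 3. The TSS of Hspb9 lies within 2.5 kb of the same peaks, so the signal cannot be given to one gene alone. Summed width was 953 ± 128 bp (SD, n = 3), and in each library most of it came from a second, lower signal at 4.62 ± 0.0935-fold, which lay at -1962 to -1086 bp from the TSS. With a window of 1 kb in place of 2.5 kb, this peak fell away and the width was 402 bp.

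Brd2 had the widest domain. It covered 3600, 3789 and 4386 bp, a mean of 3925 ± 410 (SD, n = 3) at the 99.3rd percentile. Its height was ordinary by comparison, with 12.49, 12.4 and 14.9-fold and a mean of 13.2 ± 1.40 (SD, n = 3) at the 67.6th percentile. Its peaks covered 3 annotated Brd2 starts in every library and a further one in replicates 2 and 3. Starts of H2-DMa and CR974462.3 lie within 2.5 kb of the same peaks, so the signal cannot be given to Brd2 alone. The strongest summit lay 101 bp after the 5′-most start in replicate 1. In replicates 2 and 3 it lay about 2.5 kb inside the gene.

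Brd3 had the lowest mean height of the 9 and the steadiest. It reached 9.07, 8.80 and 9.13-fold, a mean of 9.0 ± 0.173 (SD, n = 3) at the 41.8th percentile. These values are not all from the same peak. In replicate 3 the strongest was an upstream peak of 282 bp, which reached 5.26 and 6.29-fold in replicates 1 and 2. The main region was 8.45-fold in replicate 3, with a mean of 8.77 ± 0.308 (SD, n = 3). The domain of 1290, 952 and 1103 bp (1115 ± 169 SD, n = 3) lay at the 57.6th percentile. Its promoter window was covered by peaks over all 300 bases in every library. Brd2 exceeded Brd3 by 0.46, 0.49 and 0.70 on the log2 scale of height, a mean of 0.55 ± 0.13 (SD, n = 3; exact sign-flip permutation p = 0.25, adjusted 0.5). In log2 width the difference was 1.82 ± 0.30 (SD, n = 3), or 3.53 times, the largest of the 4 paralogue pairs (exact sign-flip permutation p = 0.25, adjusted 0.25).

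The deacetylase genes lay between the high writers and Brd3. Hdac2 reached 14.8, 13.5 and 13.9-fold (14.1 ± 0.638 SD, n = 3) at the 71.0th percentile. Hdac1 reached 8.82, 11.1 and 14.9-fold (11.6 ± 3.05 SD, n = 3) at the 57.9th percentile. Hdac1 was lower in replicates 1 and 2 and higher in replicate 3. The log2 differences were -0.74, -0.28 and 0.10 (exact sign-flip permutation p = 0.5, adjusted 0.5). The sign thus changed between libraries, and the test cannot decide because no pair could reach a p below 0.25.

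Their shapes differed in each library. Hdac2 had 1 peak across its TSS, 1316, 1093 and 1257 bp long, which covered its promoter window over all 300 bases. Hdac1 had 2 peaks that flanked its TSS, the downstream one at 11.6-fold and the upstream one at 6.97 ± 0.613-fold (SD, n = 3). They left 147 bp uncovered from 102 bp before to 46 bp after the start. These include the GCGCATGC, the CCAAT match and GGGCGG copies printed above. Only 300 bases were searched, and whether motifs lie in such gaps more often than elsewhere was not tested. By summed width Hdac1 was the narrowest of the 9, with 931, 731 and 948 bp (870 ± 121 SD, n = 3). This rank depended on the setting. Kat2a was narrower with a window of 1 kb (402 bp), and Kat6b (478 bp) and Kat2a (544 bp) were at −log10 q of at least 5. The strongest peak of Hdac2 was 2.86 times as long as that of Hdac1, a log2 difference of -1.52 ± 0.06 (SD, n = 3; exact sign-flip permutation p = 0.25, adjusted 0.25). That sets only 1 of the 2 Hdac1 peaks against the whole of Hdac2. In summed width Hdac2 was 1.41 times Hdac1, a log2 difference of -0.50 ± 0.09 (SD, n = 3; exact sign-flip permutation p = 0.25, adjusted 0.25).

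The height ratio of the downstream to the upstream region was computed after these shapes had been seen, for the 8 genes with exactly 2 own-TSS regions in every library, all but Hdac2. It was 8.62 ± 1.15 at Ep300, 5.79 ± 1.58 at Kat6b, 3.95 ± 0.55 at Crebbp and 3.45 ± 0.72 at Kat6a (SD, n = 3). It was 2.01 ± 0.71 at Kat2a, 1.7 ± 0.59 at Hdac1 and 1.35 ± 0.40 at Brd3 (SD, n = 3). At Brd2 it was 0.45 ± 0.13 (SD, n = 3). There the ratio set a region at 3343 to 4327 bp against the main domain at -459 to 3041 bp. It therefore does not compare the flanks of the Brd2 TSS. At Kat6b the upstream region, 18196 to 19006 bp from the 5′-most TSS, holds other annotated Kat6b starts. The Kat6b ratio thus sets peaks at different start sites against each other, and not the flanks of a single TSS. The strongest TSS summit lay downstream of the nearest start in every library at 6 of the 9 genes, or 66.7%. Over all genes with a TSS peak this share was 65.7%, so the 9 genes did not stand out in it.

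**Figure D3:**
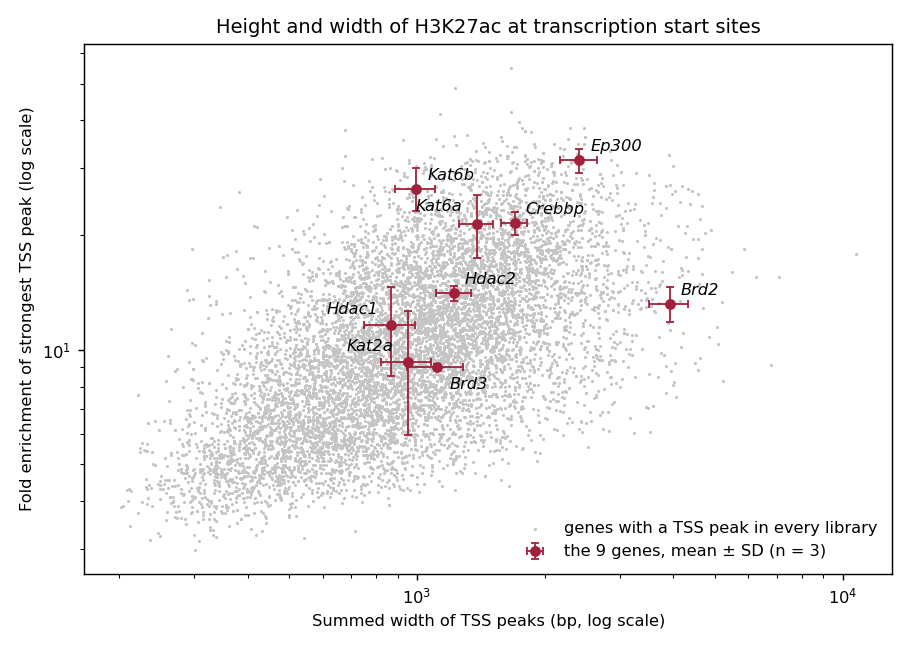
Mean fold enrichment of the strongest TSS peak (vertical, log scale) against the mean summed width of TSS peaks in bp (horizontal, log scale) for 9460 genes with a TSS peak in every library (grey) and the 9 genes (red, bars are SD over 3 libraries). Kat6b is high for its width and Brd2 is wide for its height, and Ep300 is far out on both axes.

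In the order of mean height, Ep300 lay above Kat6b, Kat6b above Crebbp, Kat6a above Hdac2 and Hdac1 above Kat2a in every library, by more than the SD of the difference. Crebbp and Kat6a, Hdac2 and Brd2, Brd2 and Hdac1, and Kat2a and Brd3 did not differ beyond their spread. In the order of mean width, Kat6a and Hdac2, Brd3 and Kat6b, and Kat6b and Kat2a did not. Across all 9460 genes height and width rose together, with a Spearman rho of 0.59, 0.54 and 0.56 in the 3 libraries. This is a description over genes that share libraries.

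Away from their start sites the genes held little reproducible signal. Over the 9 gene bodies and 10 kb on each side there were 37, 35 and 32 peaks in replicates 1, 2 and 3, which merged into 43 regions. Of 20 regions at the genes' own TSSs, 17 were found in every library. Of 11 regions inside the genes and away from any TSS, none was found in every library and 10 were found in 1. They lay in Crebbp (4), Brd3 (5) and Kat6a (2), at 2.75 to 5.85-fold.

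A region of this kind in every library was present in 7.70% of all genes with a TSS peak and in 20.5% of those of at least 50 kb. Among the 9 genes, 5 are that long: Kat6b (191 kb), Crebbp (133 kb), Kat6a (83.7 kb), Ep300 (66.7 kb) and Brd3 (62.1 kb). None of the 5 had one. The regions found once held 9 to 17 fragments at the summit, beside a smallest of 8 to 9 and a median of 17 to 20 over all peaks, so weaker acetylation inside these genes was not detectable at this depth.

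**Figure D4:**
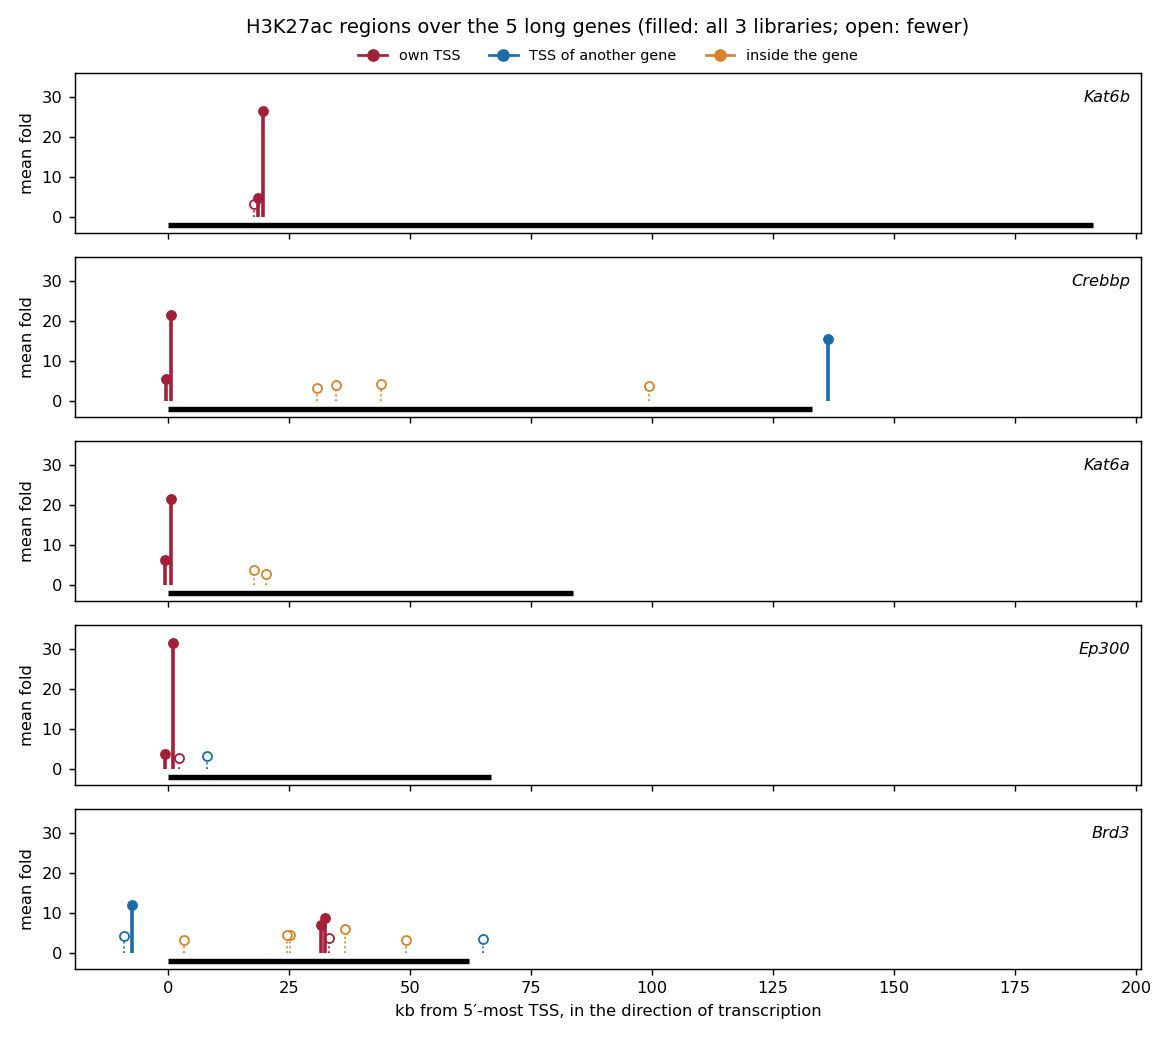
H3K27ac regions over the 5 genes of at least 50 kb and 10 kb on each side, by distance from the 5′-most TSS in kb (horizontal, in the direction of transcription) and mean fold enrichment over the libraries that hold them (vertical). Black bars are the genes, filled points are regions in all 3 libraries and open points regions in fewer; the filled points lie at the genes' own starts or at those of Trap1, beyond the end of Crebbp, and Wdr5, upstream of Brd3.

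Most of the remaining regions were promoters of neighbours. The Trap1 promoter lay beyond the 3′ end of Crebbp, at 15.4 ± 0.992-fold, and the Wdr5 promoter upstream of Brd3, at 12.0 ± 3.39-fold (SD, n = 3). The latter was higher than the Brd3 peaks in each library. Marcksl1 beside Hdac1 reached 7.51 ± 1.33-fold (SD, n = 3), and peaks at Dhx58 lay beside Kat2a and at CR974462.2 beside Brd2. A single region in a flank and away from any TSS was found in every library. It lay at -10335 to -9160 bp from the Kat2a TSS, at 4.76 ± 1.09-fold (SD, n = 3).

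Large acetylated regions were called per library by stitching neighbouring peaks at a distance between the 5 and 20 kb tried as alternatives and ranking the sums of fold enrichment times length, with super-enhancers above the point where the ranked curve has a slope of 1. TSS peaks were kept, and 1383, 1083 and 1190 of 11779, 12327 and 11525 stitched regions passed. The study, which used tags, reported far fewer super-enhancers in these cells. A call here is therefore looser than one of the study. Crebbp, Ep300 and Brd2 had such a region in 3 of 3 libraries. Kat6a had one in replicate 2 only and Kat2a in replicate 3 only, while Kat6b, Brd3, Hdac1 and Hdac2 had none. At least 2 libraries called one for 3 of the 9 genes, or 33.3%, beside 18.7% of all genes with a TSS peak. Ep300 ranked 190th, 143rd and 113th, and Brd2 411th, 347th and 229th. Crebbp was further down, with ranks of 1226, 917 and 1188. At Crebbp and Brd2 the regions were 1.64 to 1.9 kb and 4.09 to 4.79 kb long, so they were the TSS domains themselves. Without TSS peaks none of the 9 genes had a super-enhancer in any library. Crebbp lost its calls with stitching within 20 kb and with ranking by summed fold enrichment, and kept 1 with peaks of −log10 q of at least 5. Ranking by summed fold enrichment left Brd2 with 1 call and gave Kat2a 2. Kat6a had 2 calls with stitching within 5 kb, and Hdac1 had 2 within 20 kb, where its region ran upstream over the starts of other genes. Under the 4 alternatives that kept TSS peaks, Ep300 was called in 3 of 3 libraries.

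For the highest and the lowest of the 9 genes, the genes most alike were sought by Euclidean distance over 6 values, the log2 height and log2 width in each library. Nearest to Ep300 were Ddx6 (distance 0.27, 31.4-fold and 2372 bp), Zfx (0.29) and Hnrnpa0 (0.34). Nearest to Brd3 were Rarg (0.20, 9.52-fold and 1137 bp), Sesn3 (0.27) and Rps3 (0.28).

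The other genes of the acetylation machinery were taken as 5 lists of 72 genes in all, of which 66 had a TSS peak in every library. That is 91.7%, beside 43.3% of all protein-coding genes. All 9 other acetyltransferases had one, with a median of 13.0-fold, from Hat1, which acetylates newly made histones (29.2 ± 3.08), to Kat14, the ATAC enzyme (5.97 ± 1.16). All 13 subunits of acetyltransferase complexes had one as well, with a median of 12.1-fold, from Tada3 (23.7 ± 4.16) to Tada2b (5.34 ± 0.79), both adaptors of GCN5 complexes. Arpc4 had the same mean height and width as Tada3, so that signal cannot be given to Tada3 alone.

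Of 20 other readers, 17 had a TSS peak in every library, with a median of 13.9-fold. They ran from Yeats4 (32.3 ± 2.8), a YEATS-domain protein, to Atad2 (7.19 ± 1.17). The testis bromodomain gene Brdt, Cecr2 and the YEATS-domain gene Mllt3 had none in any library.

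Of 14 other deacetylases, 11 had a TSS peak in every library, at a median of 8.66-fold, the only one of the 5 lists below the 10.2-fold of all genes with a TSS peak. They ran from Hdac4 (20.0 ± 0.985) to Hdac8 (4.97 ± 1.05), and Hdac9 and Hdac11 had none. All 16 subunits of deacetylase complexes had one, with a median of 13.3-fold, the highest being Ncor1 (22.4 ± 4.5), a corepressor subunit. Hdac1 and Hdac2 thus lay above the median of the other deacetylases and on either side of that of their complex subunits. The values after ± are SDs over 3 libraries. Among the genes of each list with a TSS peak in every library, super-enhancers in at least 2 libraries were called for 1 of 9 other acetyltransferases, 3 of 13 acetyltransferase complex subunits and 7 of 17 other readers. They were called for 1 of 11 other deacetylases and 4 of 16 deacetylase complex subunits, beside the 18.7% of all genes with a TSS peak.

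**Figure D5:**
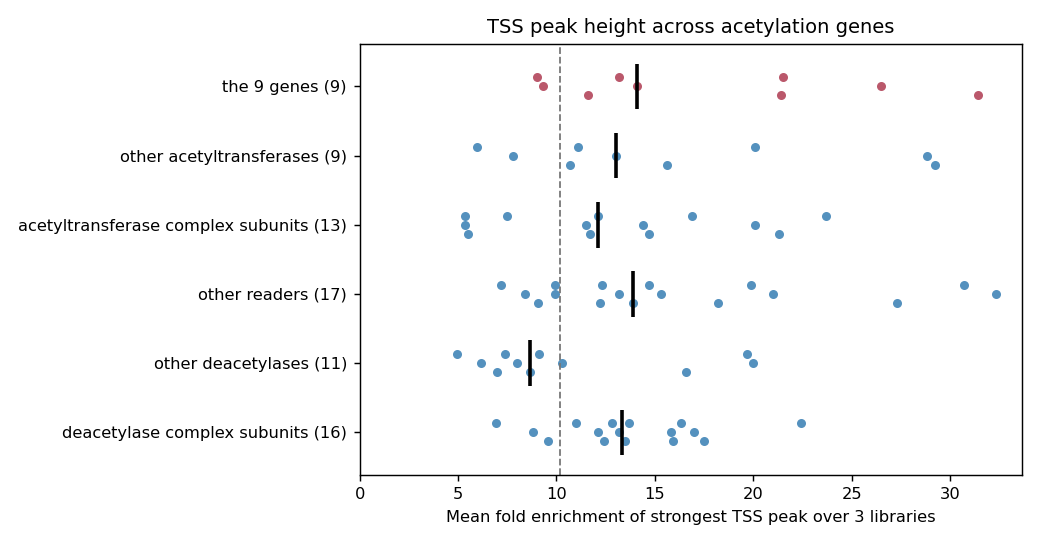
Mean fold enrichment of the strongest TSS peak over 3 libraries for the 9 genes (red) and for 5 lists of other acetylation genes (blue), restricted to genes with a TSS peak in every library (their number in brackets). Black bars are list medians, from 8.66 for other deacetylases to 14.1 for the 9 genes, and the dashed line is the median of all 9460 genes, 10.2.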

How the data were processed

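ChIP-seq reads of 75 bp were aligned by the authors with bowtie2 to GRCm38/mm10, duplicates were removed, and peaks were called per library with MACS2 2.1.1. The MACS2 control and settings were not given in the sources used here. Each deposited peak list gives a fold enrichment (a ratio to local background, with a pseudocount of 1), the −log10 of p and of q, and an integer score, which was not used. The 9 genes and the lists of other genes were chosen with earlier results of these data known.

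Rows repeating an interval were merged, leaving the strongest summit. Fragments at each summit were solved from fold and p; a solution was found for 100% of rows. Depth followed from the background and a fragment length of 200 bp. The 95% Poisson intervals cover counting error only, as duplicates cannot be told from molecules. Genes came from GENCODE M21 (protein-coding, chromosomes 1 to 19, X and Y), with TSS peaks within 2.5 kb of any protein-coding TSS. Paralogues were compared by exact two-sided sign-flip permutation over 3 libraries. The study sorted cells from 3 mice, so p-values speak of these libraries only. They do not measure spread, since a difference of the same sign in all 3 libraries gives 0.25. Crebbp over Ep300 in height (SD 0.05) and Brd2 over Brd3 in width of the strongest peak (SD 0.79) both gave it. Pairs of libraries shared 2 to 9 identical intervals, so all 3 were kept. The functions that solve fragments, read TSS height and width, stitch peaks and apply the slope threshold were tested on simulated peaks. The other steps, such as the assignment of regions to genes, were not. Super-enhancers in the study were made from tags, which were not used here. Python 3.11.15, numpy 2.4.6, scipy 1.17.1, pandas 2.3.3 and matplotlib 3.10.9 were used. Every member was named; of each list the highest, the lowest and those without a peak were named, except 1 gene that is not reported here, and the Kat6a promoter window is likewise not reported.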

Additional observations from a re-analysis of the deposited data

How the results depend on the processing

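The mean paralogue differences that could be computed kept their direction under the alternatives tried (TSS window of 1 or 5 kb, −log10 q of at least 5, 5′-most TSS only, width of the strongest peak, −log10 p in place of fold), and leaving out each library in turn changed no value by more than the spread. In width, Crebbp over Ep300 went from -0.50 to -0.23 at −log10 q of at least 5, where not all 3 libraries shared its sign. The median percentile of the 9 genes in width was 63.7 and became 75.4 with the 5′-most TSS only, which drops Kat6b and Brd3, and 77.3 with the width of the strongest peak. Their median percentile in height was 72.5 and became 78.5 with −log10 p. The number of genes with a super-enhancer in at least 2 libraries was 3 and fell to 0 with TSS peaks left out. Width of Kat6b fell from 996 to 478 bp at −log10 q of at least 5. Of 104 values of single genes under other settings, 33 moved by more than 1 SD. No paired analysis was possible because no second group was there to match by replicate number, while paralogues were compared within each library. With 3 libraries no test of a paralogue pair can give p below 0.25, so a large p does not show that 2 genes were alike. Peaks below about 8 fragments are not in the lists.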
